A study of Mus musculus with 3 samples.

Results

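Collagens are the main structural proteins of the lung's extracellular matrix, and in the mouse their genes carry symbols made of Col, a number, the letter a and a number. Of the 31054 genes in the count tables, 44 have such a symbol, and they were chosen by name alone. Coordinates below are those of the whole gene on GRCm38. Their unique molecular identifiers (UMIs, 1 per captured RNA molecule) were read in lung cells of 3 groups of mice, with 1 library of 10x 3' single-cell RNA per group. The groups were wild-type mice without irradiation, wild-type mice after irradiation, and irradiated mice with a conditional knockout that also received a drug. The labels name neither the deleted gene nor the drug, and they leave out the Cre driver, the dose, the time after irradiation, the ages and how many mice went into a library. The deleted gene could therefore not be checked, and effects of knockout and drug cannot be told apart. Values in a row are in this order: non-irradiated wild-type, irradiated wild-type, irradiated knockout with drug (called the knockout library below).

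The libraries held 85984536, 45800421 and 76667310 UMIs in 15485, 7084 and 11292 barcodes. Of these, 13091, 5805 and 9886 cells had at least 250 genes and at most 15% mitochondrial UMIs, with a median of 4899, 5706 and 6070.5 UMIs. Pairs of libraries shared 19, 32 and 18 barcodes among these cells. In the irradiated wild-type library 1595 cells (27.5%) had RNA of a male type, against 1 and 27 cells in the others. Female-type cells alone are therefore given beside the results they touch. Since each group is a single library, no difference could be set against variation among mice and none was tested. Intervals in brackets (95%, exact Poisson for levels and exact binomial for ratios and shares) cover counting error only.

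A collagen molecule is a triple helix of 3 chains. Fibrillar collagens such as types I, III and V form the fibres that give the lung its tensile strength and that build up in fibrosis. Type IV collagens form the sheet-like network of basement membranes under epithelium and endothelium, type VI forms beaded filaments around cells, and fibril-associated, multiplexin and transmembrane collagens link fibres and cells. In lung, fibroblasts and smooth muscle cells make most of the fibrillar chains, and epithelium and endothelium contribute to basement membranes. Alveolar fibroblasts sit in the walls of the air sacs, and adventitial fibroblasts in the cuffs around airways and vessels.

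Cells were sorted into 6 classes by UMIs of a few genes. Alveolar fibroblasts had at least 2 UMIs of Npnt and Tcf21 together, adventitial fibroblasts at least 2 of Pi16, Dpp4 and Cd248, and a further fibroblast gate asked for at least 2 UMIs each of Saa3 and Timp1. All 3 also had no UMI of the leukocyte gene Ptprc. Cells with a Myh11 UMI (smooth muscle and related cells), with at least 2 of Pecam1 and Cdh5 (endothelial) and with an Epcam UMI (epithelial) made up the rest. The gates held 3326, 368 and 832 alveolar, 827, 78 and 132 adventitial, 154, 19 and 79 Saa3/Timp1, and 1011, 54 and 158 Myh11 cells. They further held 2945, 401 and 695 endothelial and 750, 359 and 607 epithelial cells. A cell may pass more than 1 gate. Of the Saa3/Timp1 cells 131, 15 and 59 also passed the alveolar gate, and of the Myh11 cells 447, 23 and 67.

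Markers that the gates did not use were read in each class. In alveolar fibroblasts 8 of 8 further alveolar markers had at least 30 UMIs in each library, with a summed level of 7377 to 8879 CPM (UMIs per 1000000 UMIs of the class). Epithelial markers there summed to 17333, 14857 and 8042 CPM, and to 2593, 1266 and 382 in the restricted gate described next. In the adventitial gate 7 of 7 further adventitial markers did, but 338 of 827, 12 of 78 and 19 of 132 of its cells also passed the endothelial gate, and 342, 30 and 69 also passed the alveolar gate. Epithelial markers in the adventitial gate summed to 32603, 67590 and 34485 CPM. Of the endothelial gate, 22.7%, 73.3% and 60.3% of cells had a Ptprc UMI, and of the epithelial gate 40.3%, 67.1% and 68.7%. Results are therefore also given for lineage-restricted gates, chosen after the data were seen. They leave out of the fibroblast and Myh11 gates every cell that passes the endothelial or epithelial gate. Cells that pass both the alveolar and the adventitial gate are kept in both, and so are cells that these gates share with the Saa3/Timp1 or Myh11 gate. From the endothelial and epithelial gates they take the cells without Ptprc that pass no other gate, and Myh11 cells must lack Ptprc as well. Restricted adventitial cells numbered 430, 54 and 102, and their epithelial markers summed to 8534, 173 and 290 CPM, with 6 of 10 at 0 in the irradiated wild-type library (Cdh1, Krt7, Sftpb, Ager, Cldn18 and Foxj1).

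Type IV collagen genes lie head to head in pairs, with neighbouring starts from which the genes are read in opposite directions. The sequences of 2 pairs are shown because the values of each pair are set side by side below. They are RefSeq sequences on GRCm38.p6. Col4a1 and Col4a2 share 22 bases at their starts, chr8:11312805-11312826, written on the plus strand, which Col4a2 is read from. Between the starts of Col4a4 and Col4a3 lie 71 bases, chr1:82586850-82586920, written on the minus strand, which Col4a4 is read from. Capitals mark a GC box (GGGCGG, searched on both strands).
Col4a1/Col4a2: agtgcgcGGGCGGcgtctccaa
Col4a4/Col4a3: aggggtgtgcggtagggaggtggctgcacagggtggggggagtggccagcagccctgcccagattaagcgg

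A GC box was found in 22 of the 35 collagen genes that have a promoter window (250 bases before and 50 after the start), or 62.9%, and in 35.7% of all 32851 windows. CCAAT was in 13 of 35 against 37.4% of all windows, and TATAAA in 5 of 35 against 13.6%. A collagen gene was counted when any of its windows had a match, while the shares of all windows are per window. The units differ, so these shares are not a like-for-like comparison. Col4a1 and Col4a2 each had a GC box and CCAAT and no TATAAA, while Col4a4 had none of the 3. The starts of the third pair, Col4a6 and Col4a5 on chromosome X, lie 1308 bases apart. Such matches describe the letters and are no evidence of binding.

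Of the 44 genes, 35 had at least 30 UMIs in at least 1 class and library and are described. The other 9, with at most 25 UMIs in any class and library, are Col2a1, Col6a4, Col6a5, Col9a1, Col11a2, Col19a1, Col24a1, Col25a1 and Col26a1. In the non-irradiated library the collagen genes together were 0.731% of the UMIs of alveolar fibroblasts, 0.563% in the adventitial gate, 0.956% in Saa3/Timp1 cells, 0.405% in Myh11 cells, 0.257% in endothelial and 0.0923% in epithelial cells. In B cells (Cd79a and Ms4a1), which make no fibrillar collagen, the share was 0.0587%, 0.0258% and 0.0109%, and these levels are given as a reference below. They were uneven among B cells: of the Col1a1 UMIs, 2 cells held 24.7%, 76.4% and 84.7%, and 56 of 711, 12 of 391 and 11 of 447 B cells had any.

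**Figure D1:**
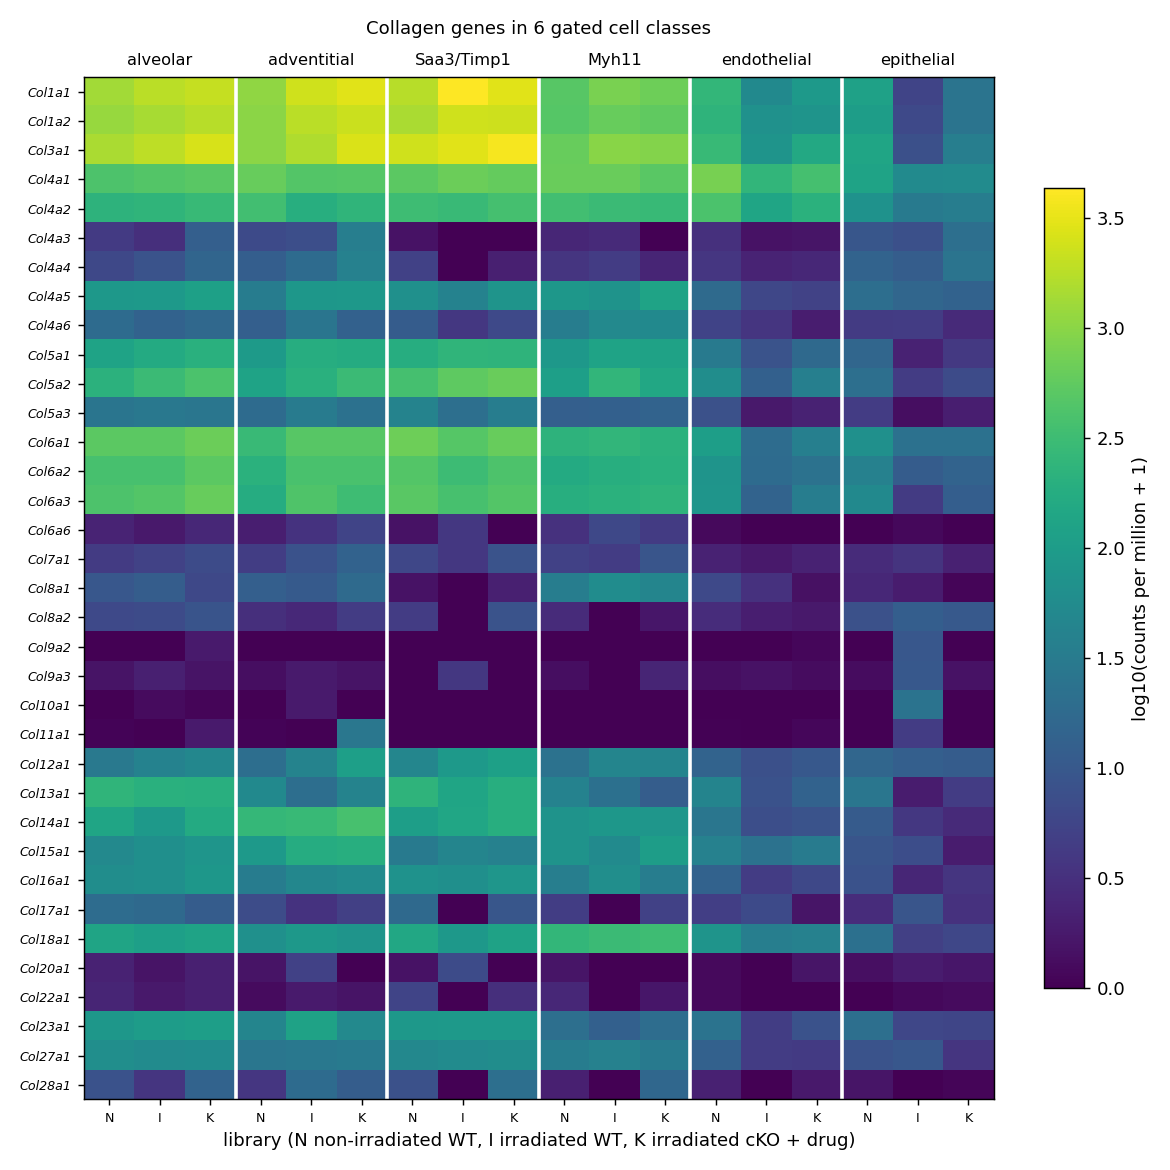
Level of the 35 described collagen genes (rows) in the 6 gated classes and 3 libraries (columns), as log10 of CPM plus 1, without error. Type I, III and VI chains are brightest in the fibroblast columns, Col4a1 and Col4a2 reach into every class, and Col10a1 is visible in 1 epithelial column.

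Without irradiation the fibrillar chains Col1a1, Col1a2 and Col3a1 were highest in Saa3/Timp1 cells by the gates as given, and Col1a1 and Col1a2 in adventitial fibroblasts once the gates were restricted. Restricted adventitial fibroblasts had 2371 CPM of Col1a1 [2324 to 2418], restricted Saa3/Timp1 cells 1984 and alveolar fibroblasts 1539 [1523 to 1556]. Myh11 cells had 708 CPM of Col1a1. The 3 main type VI chains Col6a1, Col6a2 and Col6a3 also peaked in Saa3/Timp1 cells. Across the 35 genes, by the gates as given, Saa3/Timp1 cells held the highest level of 14, alveolar fibroblasts of 9 and Myh11 cells of 4. Adventitial and epithelial cells held that of 3 each, and endothelial cells of 2. These classes are not separate, since 131 of 154 Saa3/Timp1 and 447 of 1011 Myh11 cells also passed the alveolar gate.

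Several chains separated the fibroblast classes from each other in that library. Col13a1, a transmembrane collagen, was at 273 CPM in restricted alveolar and 72.8 in restricted adventitial fibroblasts. Col14a1, which binds the surface of type I fibrils, ran the other way, at 164 and 620 CPM, and Col15a1, a multiplexin near basement membranes, likewise at 55.0 and 189. After each cell was thinned to 1000 UMIs, Col14a1 was seen in 10.8% of alveolar cells [9.67 to 12.1] and 42.0% of adventitial cells [37.3 to 46.9], and Col13a1 in 23.9% [22.3 to 25.6] and 5.94% [3.88 to 8.64]. Unthinned, these shares were 34.6% and 86.3% for Col14a1 and 63.3% and 30.9% for Col13a1, in cells with a median of 6549 and 9420.5 UMIs.

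Myh11 cells led in Col18a1, the multiplexin whose end fragment is endostatin, with 254 CPM against 133 in alveolar fibroblasts by the gates as given. They also led in Col4a6 (33.2) and in the network collagen Col8a1 (33.8), while Saa3/Timp1 cells had 0.499 CPM of Col8a1, a single UMI. Col4a1 and Col4a2, the chains of nearly every basement membrane, were highest in endothelial cells, at 771 CPM [759 to 783] and 398. In epithelial cells Col4a3 (8.49 CPM), Col4a4 (13.3) and Col8a2 (7.02) had their highest levels. Col4a3 and Col4a4 are chains of the basement membrane between air sac and capillary and share the 71 bases shown above.

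Col27a1, a minor fibrillar chain, was at 69.2 CPM in restricted alveolar, 55.1 in restricted Saa3/Timp1 and 48.2 in restricted adventitial cells. Col16a1, a fibril-associated chain, was highest in Saa3/Timp1 cells, at 75.6 CPM restricted against 69.3 in alveolar and 64.4 in adventitial cells. Col17a1, a transmembrane collagen known from skin hemidesmosomes, was at 18 CPM in alveolar and 1.89 in epithelial cells by the gates as given. Col5a3 was highest in Saa3/Timp1 cells at 40.9 CPM, and Col7a1, Col20a1, Col22a1 and Col6a6 stayed below 5 CPM in every class of the non-irradiated library.

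For the comparisons between libraries a gene was called higher or lower when its CPM, with 5 CPM added on both sides, differed at least 2-fold with 30 or more UMIs on the higher side and 50 or more cells of the class in each library. This is a rule of size, not a test. Of all class and gene combinations, 39 of 123 were called between irradiated and non-irradiated wild-type and 15 of 108 between the knockout library and irradiated wild-type. Over all tested genes, 0.710% to 5.87% per class were higher and 1.36% to 12.4% lower in the first comparison. In the second, 0.423% to 6.27% were higher and 0.818% to 1.65% lower. Of the 39, the endothelial gate gave 17 lower, and the epithelial gate 13 lower and 3 higher. With the restricted gates the counts were 16 and 5, of which 13 and 5 were also called with the gates as given. Tested members of these gates are given per class below. Of all genes there, 1.34% to 9.50% per class were higher and 0.543% to 8.85% lower in the first comparison. In the second, 0.317% to 3.74% were higher and 0.435% to 1.75% lower. The irradiated wild-type library enters both comparisons. Levels are per UMI of a gate's cells, so fewer cells of a type within a gate and less RNA per cell cannot be told apart.

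In alveolar fibroblasts no collagen gene was called in either direction after irradiation. Of 28 tested members 0 were higher and 0 lower, where 2.15% and 1.36% of the 11582 tested genes were, and the median log2 ratio was 0.06 against -0.01 over all genes. With restricted gates it was again 0 of 29 (1.34% and 0.543% of all genes). Col1a1 (chr11:94936224-94953042) was at 1539, 2254 and 2355 CPM there, a ratio of 1.46 [1.426 to 1.503] between the wild-type libraries. Col3a1 (chr1:45311538-45349706) was at 1754, 2274 and 2959, with ratios of 1.30 [1.26 to 1.33] after irradiation and 1.30 [1.27 to 1.34] from there to the knockout library. Both genes were lowest without irradiation, and the other type I chain, Col1a2, had the same order at 1394, 1793 and 1983.

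Type V collagen, which sits inside type I fibrils and sets their width, had the largest ratio among the fibrillar chains of alveolar fibroblasts. Col5a2 was at 245, 367 and 457 CPM, 1.496-fold [1.40 to 1.60] higher after irradiation and 1.87-fold [1.78 to 1.95] in the knockout library against non-irradiated. Col14a1 was the opposite in the irradiated wild-type library, at 164, 106 and 187 CPM, so that this library was the lowest of the 3, with a ratio of 0.646 [0.574 to 0.724]. Col28a1, a collagen with von Willebrand domains, was also lowest there, at 8.56, 3.33 and 14.9 CPM, the 3.33 being 10 UMIs. Col13a1 differed little, at 273, 246 and 220.

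A few cells carried much of the type I collagen of the irradiated wild-type library. In 1 cell 826 of its 23313 UMIs were Col1a1, and it passed the alveolar, the adventitial and the Saa3/Timp1 gate. In a second, alveolar, 588 of 46005 were. These 2 cells held 20.9% of all Col1a1 UMIs of restricted alveolar fibroblasts in that library, against 1.02% and 5.47% for the top 2 cells in the others. Without the 2 top cells of each library alveolar Col1a1 was at 1526, 1826 and 2250 CPM, in the same order with a smaller first step. Among female-type cells it was at 1577, 2145 and 2439. In thinned cells the share with a Col1a1 UMI was 64.4%, 62.5% and 64.6%, with intervals that overlap, and 84.6%, 76.2% and 77.1% unthinned at median depths of 6549, 6631.5 and 6611.5 UMIs. Of B cells, at median depths of 4828, 5027 and 6282 UMIs, 2.95%, 0.767% and 0.224% had one after thinning.

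Between the knockout library and irradiated wild-type, 2 of 28 tested members were higher in alveolar fibroblasts and 0 lower (0.423% and 0.818% of all genes). They were Col4a3, at 3.13, 2.12 and 11.5 CPM, and Col28a1, at 7.26, 2.65 and 13.5. With restricted gates 1 of 26 remained called, Col28a1, 4.48-fold [2.33 to 9.64] apart (0.317% and 0.435% of all genes). Alveolar Col4a3 was then at 1.42, 0.333 and 1.90 CPM, on 30, 1 and 12 UMIs. In the gate as given the top 2 cells held 57.1% of its 84 UMIs in the knockout library.

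In adventitial fibroblasts, which share cells with the alveolar gate, the members called depended on the setting and in part on single cells. By the gates as given, 4 of 23 tested members were higher after irradiation and 1 lower, where 3.33% and 6.50% of all genes were, and the members' median log2 ratio was 0.69 against -0.16. Among female-type cells 0 were higher and 2 lower (Col4a2 and Col13a1) of 20, with a median of 0.39. Of 9070 genes 317 were higher and 739 lower there. A mean of per-cell CPM gave 10 higher and 0 lower of 23, and median-of-ratios scaling 10 and 1. For these settings no share over all genes was computed. The members' median log2 ratios were 0.92 and 0.88, against -0.08 and -0.003 over all genes. Restricted gates gave 6 higher and 1 lower of 23 (1.80% and 4.94% of all genes), with a median of 0.71. Col6a3 (chr1:90765923-90843971) was at 339, 942 and 490 CPM, 2.78-fold [2.51 to 3.07] higher in the irradiated wild-type library than in the non-irradiated one. It encodes the longest of the main type VI chains, and 49 of the 54 irradiated wild-type cells carried it. Its partner chains lay closer together, with Col6a1 at 593, 891 and 727 and Col6a2 at 425, 768 and 599.

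Col23a1 (chr11:51289920-51583918), a transmembrane collagen, showed the largest ratio between the wild-type libraries among the tested members of this class, at 76.7, 270 and 69.9 CPM. Its ratio was 3.52 [2.88 to 4.29] after irradiation, and the knockout library lay back at the non-irradiated level, 0.259 [0.194 to 0.343] of irradiated wild-type. Of its 147 UMIs in irradiated wild-type cells 27.2% were in 1 cell, and 27 of 54 cells had the gene. Among female-type cells, 34 in the irradiated wild-type library and thus too few for a call, it was at 77.3, 148 and 55.4. Col4a5, a basement membrane chain, was at 59.3, 143 and 114 CPM and Col15a1 at 189, 386 and 287, both lowest without irradiation. In female-type cells Col4a5 was at 60.8, 84.7 and 112, and Col15a1 at 191, 326 and 285.

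Col1a1 in restricted adventitial fibroblasts was at 2371, 5019 and 4677 CPM, 2.12-fold [2.03 to 2.21] higher after irradiation. In the irradiated wild-type library 38.2% of those UMIs were in 2 cells. Without the 2 cells with most Col1a1 of this class in each library it was at 2324, 3341 and 4207, a ratio of 1.44 [1.36 to 1.51], and was no longer called. The other 5 genes called higher (Col4a5, Col6a3, Col12a1, Col15a1, Col23a1) and Col13a1 remained called without those cells. In female-type cells Col1a1 was at 2412, 5218 and 4708, with the cell of 826 UMIs among them, and Col6a3 at 347, 606 and 492.

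Not every adventitial collagen was higher after irradiation. Col14a1, the leading fibril-associated collagen of this class, stood at 620, 601 and 592 CPM, with a ratio of 0.969 [0.861 to 1.09] between the wild-type libraries, an interval that includes no difference. Col13a1 was lower in the irradiated wild-type library, at 72.8, 31.2 and 57.4 CPM, on 17 UMIs. Endothelial markers in these restricted cells summed to 174, 77.1 and 101 CPM, and their part in the result was not tested.

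**Figure D2:**
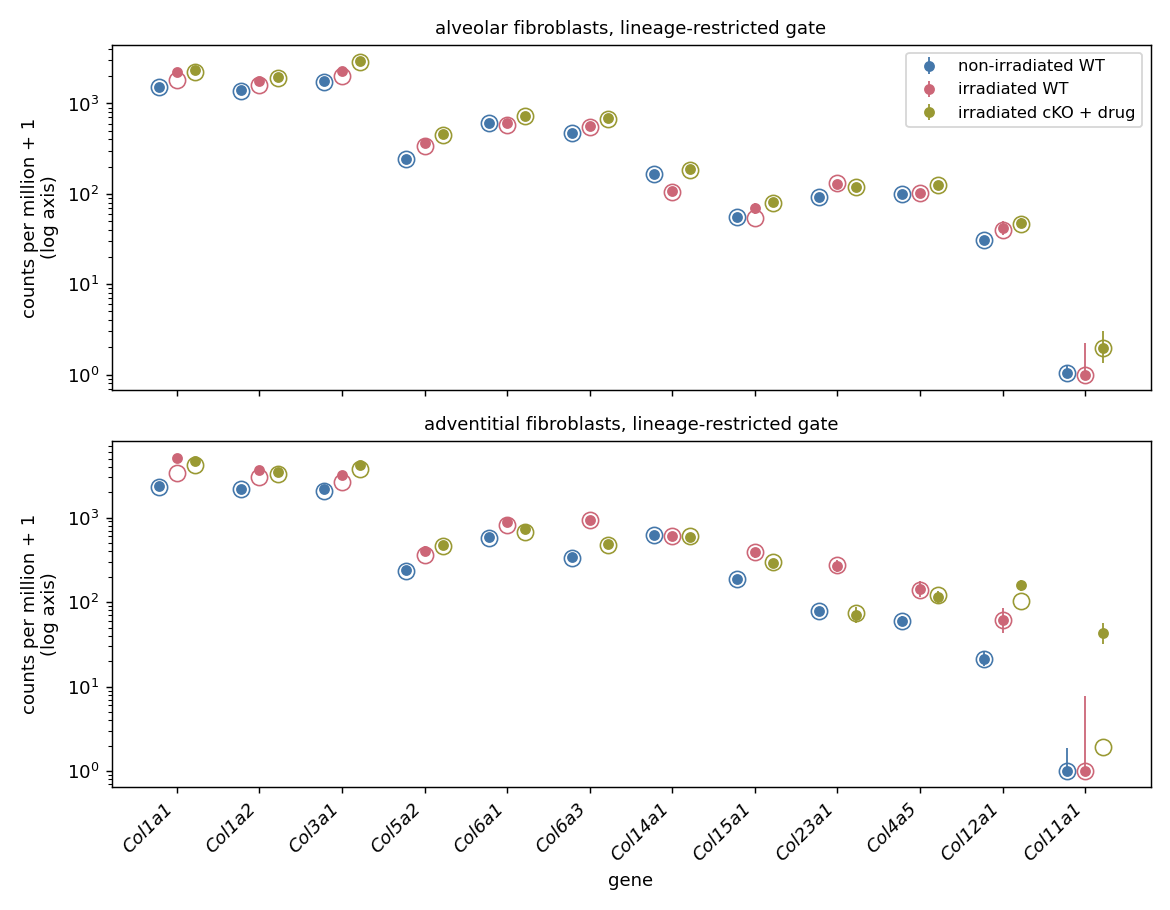
CPM plus 1 (log axis) of 12 collagen genes in alveolar (top) and adventitial (bottom) fibroblasts of the lineage-restricted gates, by library. Filled points are all cells with exact 95% Poisson intervals, and open circles, without intervals, leave out the 2 cells with most Col1a1 in each class and library; adventitial Col6a3 and Col23a1 stay high in irradiated wild-type, while Col1a1 is lower without those cells.

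In the knockout library against irradiated wild-type, 3 of 25 tested members were higher in the adventitial gate (Col4a3, Col11a1 and Col12a1) and 1 lower (Col23a1), where 2.72% and 1.65% of all genes were. Restricted gates left Col11a1 and Col12a1 higher and Col23a1 lower of 21 (3.28% and 1.54% of all genes). Col12a1, a fibril-associated chain of tissues under tension, was at 20.5, 60.6 and 158 CPM. Col11a1, a fibrillar chain best known from cartilage and tendon, was at 0, 0 and 42.1. A single cell of the knockout library held 46 of the 47 Col11a1 UMIs of its class, together with 68 of Col12a1, 100 of Postn and 12 of Tnmd, a tendon gene. Without the 2 cells with most Col1a1, Col12a1 was at 20.3, 61.3 and 102 and Col11a1 at 0, 0 and 0.944. Of 19 tested members 0 were then higher and 1 lower, where 136 and 62 of 4222 genes were. The cells left out were chosen by Col1a1 and not by Col12a1. In adventitial cells of the knockout library outside the endothelial gate, 2 cells held 137 of 187 Col12a1 UMIs (73.3%), with 69 in 1 cell.

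The Saa3/Timp1 gate held only 19 irradiated wild-type cells, so calls were made only between the knockout and non-irradiated libraries. There 1 of 21 tested members was higher and 0 lower (2.20% and 3.03% of all genes). It was Col12a1, at 45.9 and 116 CPM, and without the 2 cells with most Col1a1 of the restricted gate it was at 42.8 and 51.0. Col3a1 was at 2377 CPM without irradiation and 3863 in the knockout library, Col5a2 at 366 and 632, Col14a1 at 108 and 190, and Col13a1 at 228 and 188. In the 19 irradiated wild-type cells Col1a1 stood at 4291 CPM, and 55.6% of those UMIs came from 1 cell.

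Among Myh11 cells 1 of 20 tested members was higher after irradiation and 0 lower, where 0.710% and 8.00% of all genes were. It was the type V chain Col5a2, at 113, 244 and 152 CPM, with a ratio of 2.16 [1.80 to 2.59]. With restricted gates it was at 162, 351 and 207, from 38 irradiated wild-type cells. The call rests in part on 1 cell, which held 28.4% of the gene's UMIs in the irradiated wild-type library. Without the cell with most UMIs of each gene 0 members were higher and 1 lower (Col13a1) of 19, and the median log2 ratio was -0.07 in place of 0.17. With 20 CPM added 0 were called, and after thinning 0 were higher and 1 lower (Col6a2) of 10. No share over all genes was computed for these settings. Col18a1, which without irradiation was higher in this class than in the others, was at 254, 294 and 322 CPM. Its ratio after irradiation was 1.16 [0.984 to 1.35], which includes no difference. Epithelial markers in the Myh11 gate summed to 14909, 47394 and 818 CPM. Mesenchymal markers there summed to 8812, 27550 and 12822 CPM, highest in the irradiated wild-type library. The part of either in these values was not tested.

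Against irradiated wild-type, 0 of 17 tested members were called in Myh11 cells of the knockout library, where 6.27% of all genes were higher and 0.946% lower. Col4a5 and Col4a6, the chain pair that marks smooth muscle basement membranes, were at 82.2, 72.7 and 127 CPM and at 33.2, 50.2 and 52.3. Col8a1 was at 33.8, 57.1 and 44.2. In restricted cells of the knockout and non-irradiated libraries, Col15a1 was at 172 and 85.2 CPM and Col13a1 at 21.7 and 51.6. Col13a1 was called lower, the single call among 20 tested members, where 0.453% of all genes were higher and 2.90% lower.

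In the endothelial gate as given most tested collagens were lower after irradiation. Of 25 tested members 17 were lower and 0 higher (12.4% and 5.87% of all genes), with a median log2 ratio of -1.43 against -0.21. Col4a1 was at 771, 249 and 366 CPM and Col4a2 at 398, 134 and 210, ratios of 0.322 [0.302 to 0.344] and 0.336 [0.307 to 0.368] between the wild-type libraries. In the same gate the endothelial markers summed to 6388, 1218 and 2011 CPM, the mesenchymal markers to 5851, 1077 and 2125, and the leukocyte markers to 2649, 4185 and 3099. Endothelial markers were thus lowest, and cells with Ptprc most frequent, in the library where Col4a1 and Col4a2 were lowest. The other 15 lower members were Col1a1, Col1a2, Col3a1, Col4a5, Col5a1, Col5a2, Col5a3, Col6a1, Col6a2, Col6a3, Col13a1, Col14a1, Col16a1, Col23a1 and Col27a1.

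With Ptprc-negative cells only, Col4a1 was at 927, 926 and 960 CPM and Col4a2 at 482, 502 and 565. The ratio of Col4a1 between the wild-type libraries was 0.998 [0.932 to 1.07]. In restricted endothelial cells, 1558, 84 and 229 in number, Col4a1 was at 1079, 1168 and 1089 and Col4a2 at 538, 670 and 672, and neither gene was lowest in the irradiated wild-type library. Endothelial markers there summed to 9330, 6053 and 5748 CPM, mesenchymal markers to 1704, 418 and 895, and smooth muscle markers to 152, 19.0 and 26.0. The genes of this head-to-head pair had similar ratios under both gates: for Col4a1 and Col4a2 the log2 ratios between the wild-type libraries were -1.61 and -1.54 as given and 0.11 and 0.31 when restricted.

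The 2 multiplexins, which sit at the border of basement membrane and stroma, were higher in restricted endothelial cells after irradiation by a little less than the call limit. Col15a1 was at 50.2, 99.3 and 95.5 CPM, a ratio of 1.98 [1.42 to 2.70], on 47 UMIs in the irradiated wild-type library, of which 93.6% were in 2 of its 84 cells. Col18a1 was at 80.4, 144 and 109, a ratio of 1.79 [1.37 to 2.30], with 18 of those 84 cells carrying it and 36.8% of its UMIs in 2 cells. By the gate as given both were lower instead, at 38.9, 22.6 and 31.1 and at 74.7, 35.0 and 39.0.

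**Figure D3:**
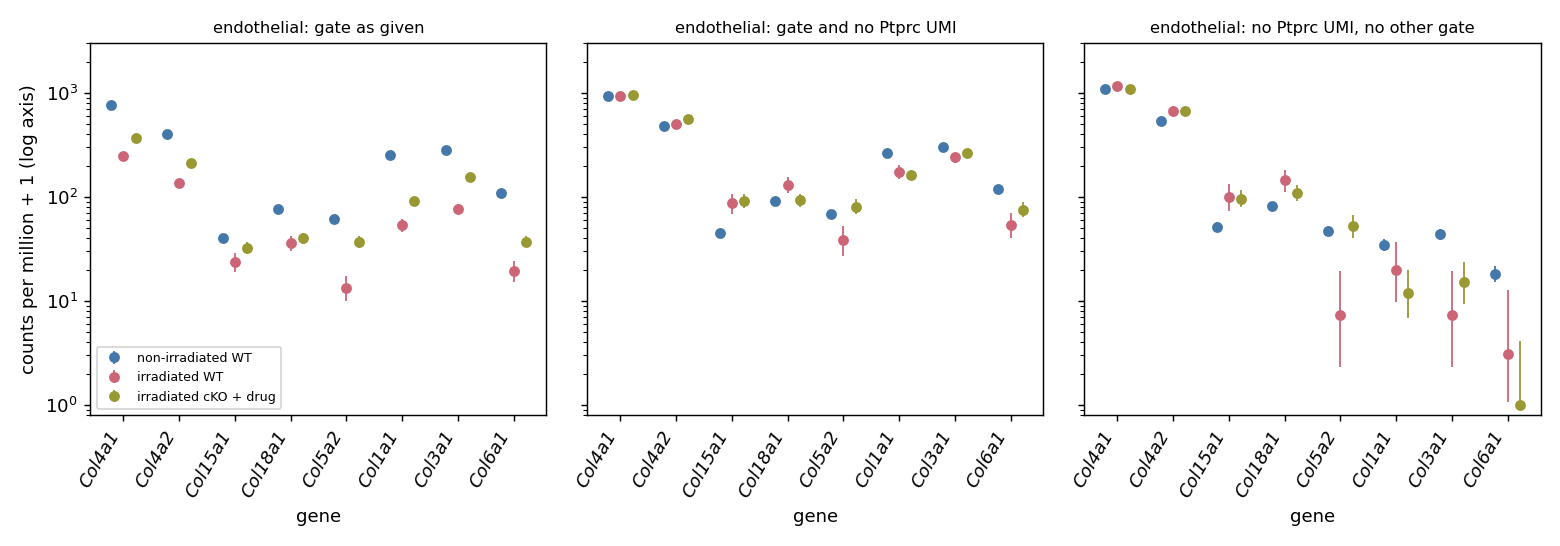
CPM plus 1 (log axis, exact 95% Poisson intervals) of 8 collagen genes in endothelial cells under 3 gates, by library. In the left panel all genes are lowest in irradiated wild-type; in the middle and right panels Col4a1 is at a similar height in the 3 libraries, and Col4a2, Col15a1 and Col18a1 are lowest without irradiation.

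Restricted endothelial cells had 8 of 16 tested members lower after irradiation and 0 higher (8.85% and 2.74% of all genes). They were Col3a1, Col5a1, Col5a2, Col6a1, Col6a2, Col6a3, Col14a1 and Col23a1, each on 1 to 3 UMIs in the irradiated wild-type library. The mesenchymal and smooth muscle markers above were also lowest in that library, and their part in the result was not tested. In the non-irradiated library 4 of the 8 (Col3a1, Col6a1, Col6a2 and Col6a3) were below their level in B cells: Col3a1 was at 42.7, 6.34 and 14.2 CPM, and B cells had 107, 54.8 and 27.5, of which 2 cells held 14.99%, 87.3% and 77.4%. Col1a1, at 33.7, 19.0 and 10.9, was likewise below the 101, 53.5 and 17.4 of B cells. Col5a2, at 45.8, 6.34 and 51.1 CPM against 17.9, 9.14 and 6.21 in B cells, was the single member called higher of 5 in the knockout library against irradiated wild-type, with 0 lower (3.74% and 0.817% of all genes). By the gate as given, Col5a2 and Col6a3 were higher there and 0 lower of 17 (1.39% and 1.54% of all genes).

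In the epithelial gate as given, 13 of 27 tested members were lower and 3 higher after irradiation (5.13% and 3.49% of all genes). The lower ones were Col1a1, Col1a2, Col3a1, Col4a1, Col4a2, Col5a1, Col5a2, Col6a1, Col6a2, Col6a3, Col13a1, Col18a1 and Col23a1. They included Col1a1 at 117, 4.49 and 24.3 CPM, Col3a1 at 137, 6.64 and 34.3, and Col6a3 at 52.0, 3.23 and 11.01. Restricted cells, 220, 85 and 143 in number, had Col1a1 at 5.59, 2.05 and 1.03 CPM, which is below B cells, and 0 of 6 tested members lower. Mesenchymal markers summed to 2346, 198 and 541 CPM in the gate as given and to 452, 118 and 74.3 in the restricted one.

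Among the basement membrane chains of restricted epithelial cells, Col4a1 and Col4a4 differed little, at 63.8, 54.5 and 46.4 CPM and at 14.0, 16.4 and 11.3. Col4a3 differed more. It was lower in the knockout library than in irradiated wild-type by more than the call limit, but was not called. Its log2 ratio is given with those that changed sign, in the last section. Col8a2, a network collagen, was the single member called higher after irradiation (9.50% of all genes were, and 4.33% lower), at 14.4, 35.5 and 23.7 CPM, a ratio of 2.47 [1.58 to 3.89]. Without the 2 cells with most Col1a1 it was at 14.5, 33.3 and 23.9 and was not called. Between the knockout library and irradiated wild-type 0 of 4 tested members were called in restricted cells (1.63% higher and 1.75% lower of all genes). As given, Col1a1, Col1a2, Col3a1 and Col4a3 were higher and Col9a2, Col9a3 and Col10a1 lower, of 21 (0.779% and 0.969% of all genes).

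The last 3 of these genes had nearly all their UMIs in 1 cell. Col10a1, the collagen of hypertrophic cartilage, was at 0, 23.3 and 0 CPM in the epithelial gate, and 129 of its 130 UMIs in the irradiated wild-type library were in a cell of 33280 UMIs. That cell also held 48 UMIs each of Col9a2 and Col9a3, 101 of Acan, 23 of Sox9 and 22 of Col2a1, all genes of cartilage, and it had 1 Epcam and 1 Ptprc UMI. It had no UMI of Sftpc, Krt8 or Cdh1. In restricted epithelial cells Col9a2 and Col10a1 were at 0 in every library, where 3 UMIs would be 1.20, 2.05 and 1.55 CPM.

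Chains that share a triple helix allow a further comparison. Type I collagen has 2 chains from Col1a1 and 1 from Col1a2, and the ratio of their 3' UMIs, which are not scaled by length, was compared between libraries. In restricted alveolar fibroblasts it was 1.10 [1.09 to 1.12], 1.26 [1.21 to 1.30] and 1.19 [1.16 to 1.22], and in adventitial ones 1.08 [1.05 to 1.11], 1.36 [1.28 to 1.44] and 1.34 [1.28 to 1.39]. Myh11 cells had 1.06, 1.41 and 1.26. The ratio was lowest without irradiation in all 3 classes, with intervals that do not overlap those of the irradiated libraries. Without the 2 cells with most Col1a1 per class and library the alveolar ratios were 1.10, 1.13 and 1.17 and the adventitial ones 1.08, 1.10 and 1.27. The intervals of the wild-type libraries then overlapped in both classes, and in adventitial cells that of the knockout library [1.21 to 1.33] lay above both. In Myh11 cells the ratios without those cells were 1.05, 1.29 and 1.28.

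**Figure D4:**
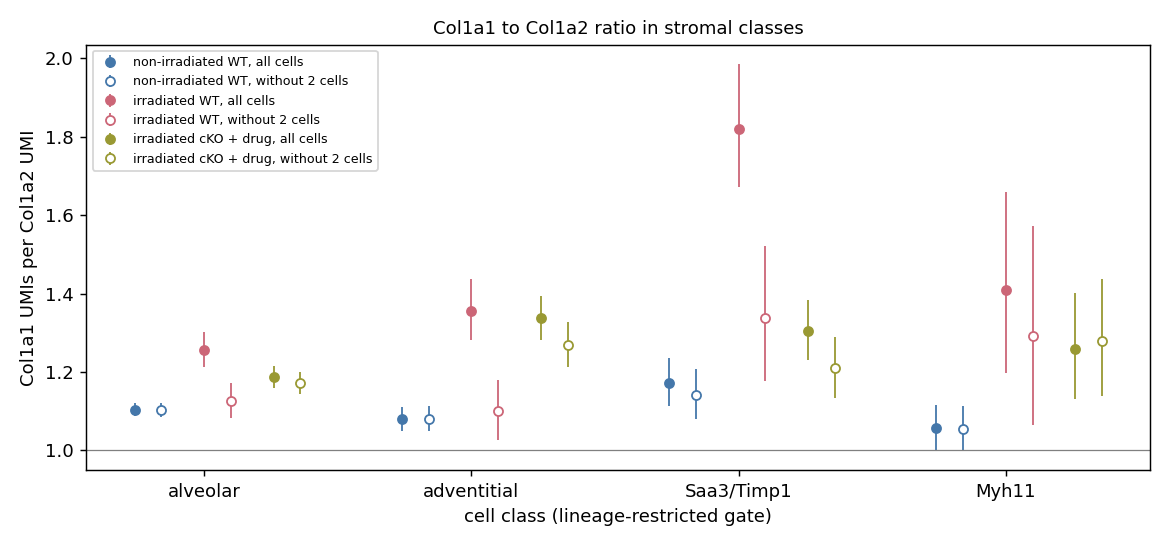
Col1a1 UMIs per Col1a2 UMI in 4 stromal classes of the lineage-restricted gates, by library, with exact 95% intervals for counting error. Filled points are all cells and open points leave out the 2 cells with most Col1a1 per class and library; the irradiated wild-type points differ most between filled and open.

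The balance of type VI chains differed between libraries in adventitial fibroblasts, where Col6a3 per Col6a1 was 0.572 [0.536 to 0.611], 1.06 [0.932 to 1.20] and 0.673 [0.603 to 0.751]. In irradiated wild-type adventitial cells outside the endothelial gate, 2 cells held 25.9% of the Col6a3 UMIs and 19.2% of those of Col6a1. Female-type Col6a3 of that library was lower, as given above, and the ratio is not given for those cells. In alveolar fibroblasts Col6a3 per Col6a1 was 0.777, 0.917 and 0.929. Col5a1 per Col5a2 was lower in the knockout library than without irradiation in alveolar fibroblasts, 0.505 [0.473 to 0.537] against 0.586 [0.560 to 0.613], and in adventitial ones, 0.570 against 0.806. Col4a1 per Col4a2 was 1.84, 1.92 and 1.82 in alveolar fibroblasts and 2.00, 1.74 and 1.62 in restricted endothelial cells. For Col4a5 per Col4a6 the ratio was 5.04, 6.63 and 7.08 in alveolar fibroblasts and 2.65, 1.74 and 2.15 in Myh11 cells.

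Genes that modify, cut, cross-link, degrade or bind collagen were followed as 5 lists of 20, 12, 13, 10 and 15 genes. In alveolar fibroblasts (restricted) 0 of 18 tested genes of chain modification and folding and 0 of 8 of propeptide cleavage and cross-linking were called after irradiation. Lox, which cross-links collagen and elastin, was at 163 and 267 CPM in the wild-type libraries and was not called. Of 9 genes of degradation and uptake 0 were higher and 1 lower, the stromelysin Mmp3 (227 and 103). Over all genes 1.34% were higher and 0.543% lower. None of 6 receptors and 14 partners was called, with the integrin chain Itga1 at 120 and 82.8 and with Fn1, the fibronectin on which fibrils assemble, at 767 and 1458. Between the knockout library and irradiated wild-type 0 of 19, 8, 9, 4 and 14 tested genes of the 5 lists were called in this class, with the protease inhibitor Timp1 at 592 and 329 CPM.

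In restricted adventitial fibroblasts 1 of 17 modification genes was higher after irradiation, the lysyl hydroxylase Plod1 (31.8 and 73.5 CPM), and 0 lower. Of 7 cleavage genes 0 were higher and 1 lower, the protease enhancer Pcolce2 (1030 and 382). Of 9 degradation genes the membrane collagenase Mmp14 (172 and 388) and the collagen uptake receptor Mrc2 (108 and 222) were higher. Of 13 partners Thbs1 was higher (587 and 1253) and Fmod (108 and 31.2) and Postn (81.7 and 27.5) were lower, and 0 of 4 receptors were called. In the knockout library against irradiated wild-type Timp1 (1209 and 329) and Postn (160.5 and 27.5) were higher and Mmp3 (203 and 522) lower, out of 9 degradation genes and 14 partners, with 0 of 16, 8 and 3 called in the other lists. Of the Postn UMIs in the knockout library, 100 were in the cell that held nearly all Col11a1. Over all genes 1.80% were higher and 4.94% lower after irradiation, and 3.28% and 1.54% in the second comparison.

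In Myh11 cells, by the gate as given, 2 of 9 degradation genes and 1 of 13 partners were higher after irradiation, and 1 of 6 cleavage genes and 1 degradation gene lower. Timp1 (80.6 and 364 CPM), the gelatinase Mmp2 (72.1 and 187) and Fn1 (228 and 745) were the higher ones. Pcolce2 (258 and 114) and Mmp3 (70.2 and 20.8) were lower, and 0 of 13 modification genes and 0 of 5 receptors were called. In the knockout library against irradiated wild-type 3 of 8 degradation genes were higher and 1 lower. The collagenase Mmp8 (52.9 and 0 CPM), the gelatinase Mmp9 (25.5 and 0) and the collagen-cleaving cathepsin Ctsk (42.2 and 10.4) were higher and Timp1 (48.9 and 364) lower. Of 12 partners Dcn, a proteoglycan that coats fibrils, was higher (414.0 and 151) and Fn1 (253 and 745) lower, and 0 of 14, 7 and 4 genes of the other lists were called. Mmp8 and Mmp9 are also made by leukocytes, whose markers other than Ptprc summed to 1876, 1162 and 823 CPM in this gate. Cells with a Ptprc UMI were 21.3%, 20.4% and 31.6% of it, most frequent in the knockout library. The part of leukocytes in the result was not tested. Mesenchymal markers of this gate, given above, were highest in irradiated wild-type, and their part was not tested either. Over all genes 0.710% were higher and 8.00% lower after irradiation, and 6.27% and 0.946% in the second comparison.

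In restricted endothelial cells, of 5 receptors, the collagen-binding integrin chain Itga1 was lower after irradiation (822 and 298) and the collagen receptor Adgrg1 higher (43.1 and 114). Of 10 partners Dcn was higher (77.4 and 184) and 5 were lower, namely Bgn (206 and 23.2), Prelp (52.4 and 8.45), Thbs1 (67.2 and 21.1), Aspn and Dpt. Of 7 cleavage genes Lox and Loxl1 were lower and of 5 degradation genes Mmp3, each with no UMI in the irradiated wild-type library, and 0 were higher. The modification genes Plod1 (48.9 and 110) and P4ha1 (28.8 and 65.5), which hydroxylate collagen chains, were both higher there, 2 of 13 tested, with 0 lower. In the knockout library against irradiated wild-type Plod1 was lower (51.9 CPM), 1 of 10 modification genes. Of 5 partners Bgn (149.9), Fn1 (51.1 against 12.7) and Thbs1 (52.8) were higher and Dcn (32.7) lower. Over all genes 2.74% were higher and 8.85% lower after irradiation, and 3.74% and 0.817% in the second comparison. Both comparisons rest on 84 irradiated wild-type cells.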

How the data were processed

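Droplet 3' single-cell RNA libraries of mouse lung, 1 per group, were read as the authors deposited them: a matrix of UMI counts per gene and barcode, whole numbers without normalization, per the file headers written by a software of version 3.1.0 that they do not name. The genome build was mm10, per the submitters' processing notes. The aligner and annotation were not given in the sources used here. The lowest deposited barcode had 500 UMIs, and the libraries held 45800421 to 85984536 UMIs.

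Barcodes with at least 250 genes and at most 15% of UMIs from 13 mitochondrial genes were kept. Doublets were not removed; Scrublet marked 1622, 329 and 893 cells, and leaving these out was an alternative. Classes were cut by UMI thresholds, not clustered. UMIs were summed per class and library and divided by the class total (CPM). A call needed a 2-fold difference after adding 5 CPM to both sides and 30 UMIs in the higher library, with 50 cells in each. With 1 library per group no p-values were computed. The calling code was run on simulated data. Of 4-fold changed genes 100 of 100 were recovered in each direction in alveolar fibroblasts between the wild-type libraries, with 0 of 11699 unchanged genes called. Poisson counts were drawn from a pooled profile, and only well-covered genes were changed. With no spread among cells or mice in it, the simulation checks the arithmetic of the calls. It cannot show how often such spread leads to a call in the real libraries.

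Genes, lists and gates were chosen with earlier results of these data known. All matching symbols are accounted for. Values are given for members with 30 UMIs in some class and library, for those called and for those with extreme ratios, for 2 to 3 genes per pathway list and for chain pairs. Results were recomputed under 16 other settings and under 4 more that were added after the data were seen. Tools were scanpy 1.11.5, matplotlib 3.10.9, pandas 2.3.3, scipy 1.17.1 and numpy 2.4.6 under Python 3.11.15.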

Additional observations from a re-analysis of the deposited data

Results flagged for a closer look

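In 5 genes the log2 ratio between irradiated and non-irradiated wild-type, with the gates as given, was called in opposite directions in different classes. The difference between classes was not tested, since each group is a single library. For Col1a1 it was 1.12 in adventitial, -2.16 in endothelial and -3.69 in epithelial cells. For Col23a1 it was 1.38, -1.73 and -1.35, and for Col6a3 1.29, -2.19 and -2.79 in the same classes. For Col4a5 it was 1.20 in adventitial and -1.16 in endothelial cells. For Col5a2 it was 1.08 in Myh11, -1.92 in endothelial and -1.58 in epithelial cells. The share of cells with Ptprc in the endothelial and epithelial gates differed between these libraries too, as given above, and its part was not tested.

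Among kept cells that passed no gate, 5 collagens of cartilage had a level in the irradiated wild-type library above that in the non-irradiated one. Col2a1 was at 4.505 CPM against 0.138, Col9a2 at 1.394 against 0.0345, Col9a3 at 2.333 against 0.241, Col11a1 at 2.463 against 0.0690 and Col11a2 at 2.171 against 0.966. A single cell held 124 of 139 UMIs of Col2a1, 29 of 43 of Col9a2, 50 of 72 of Col9a3, 59 of 76 of Col11a1 and 23 of 67 of Col11a2.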

How the results depend on the processing

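Over 54 named class and gene combinations and 20 settings, 788 of 818 alternative log2 ratios had the sign of the reported one and 30 did not. The number of cells limits mainly the irradiated wild-type library, which had the fewest in every stromal class.

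The 39 calls between the wild-type libraries became 23 with no Ptprc UMI in all gates, 25 with gate thresholds 1 UMI higher, 21 with 20 CPM added and 64 at a fold of 1.5. They became 16 with lineage-restricted gates, 1 among their female-type cells and 15 without their 2 cells with most Col1a1. The 15 calls between the knockout library and irradiated wild-type became 24 with 1 CPM added, 5 with 20 CPM added, 9 with at least 100 UMIs, 3 after thinning and 36 at a fold of 1.5. The 3 after thinning were Col4a5 in alveolar, Col6a2 in Myh11 and Col1a1 in endothelial cells. None of them was among the 15, so none of the 15 was called after thinning. With lineage-restricted gates they became 5, 1 among female-type cells and 3 without the 2 cells. The counts with no Ptprc UMI, higher thresholds, restricted gates or female-type cells rest on fewer classes with 50 cells. No share over all genes was computed with higher thresholds, other added CPM, other UMI or fold limits, or thinning. Such settings can change the calls of every gene, so these counts describe the settings and are no result about collagens.

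These log2 ratios changed sign, and the cause was not tested. Between the wild-type libraries, endothelial Col16a1 was 0.22 with restricted gates, Col4a1 was 0.11 and, without the 2 cells, 0.14, and Col4a2 was 0.058 with no Ptprc UMI, 0.31 and 0.34. Epithelial Col18a1 was 0.037 with restricted gates, 0.15 in female-type cells and 0.27 without the 2 cells. Epithelial Col9a3 was -0.088 with no Ptprc UMI, -0.047 with higher thresholds, -0.11 restricted, -0.12 in female-type cells and -0.11 without the 2 cells.

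Between the knockout library and irradiated wild-type, endothelial Col6a3 was -0.092 with restricted gates. In the epithelial gate, restricted, in female-type cells and without the 2 cells, Col1a1 was -0.22, -0.29 and -0.20, Col1a2 was -0.11, -0.14 and -0.14, and Col4a3 was -1.23, -1.13 and -1.31. Col4a3 was also -0.21 as a mean of per-cell CPM. Col9a3 was 0.18 with no Ptprc UMI, 0.15 with higher thresholds, and 0.27, 0.34 and 0.27 in the other 3.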
